A study of Drepana arcuata with 6 samples.

Results

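Among the 116079 Trinity genes assembled from larvae of the masked birch caterpillar, Drepana arcuata, 40 met a rule on level and isoform share. In each of the 40, 1 isoform led in all early instar libraries and another isoform led in all late instar libraries. The level of the whole gene stayed within 2-fold. The rule also asked for a minimum level and share, so other genes with a change of leader were left out. These 40 genes are described here. They were chosen by measured values of the same libraries and the same contrast. Their isoform shares and gene levels are therefore given as a description and are not evidence that the stages differ. Where members are counted among the calls of a fit across all features, the count stands beside that of all features and nothing is read from it.

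The larvae live in groups as early instars and alone as late instars, and the study set these life stages against each other. Each of the 3 early instar libraries came from a pool of 20 whole larvae of instars I and II, and each of the 3 late instar libraries from a pool of 5 whole larvae of instars IV and V. All larvae were offspring of 1 female and were reared on paper birch leaves, with no treatment given in the labels, so the replicates are separate pools of 1 family and the spread between them does not cover other families. Instar, social state, body size and pool size changed together and cannot be told apart. In whole bodies, a shift in the share of a tissue and a change of isoform use within cells cannot be told apart either. The libraries held between 11177800 and 46307057 expected counts, so that 10 CPM, counts per 1000000 counts of the library, stood for 111.8 to 463.1 counts.

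A gene of an animal can give several transcripts through alternative promoters, alternative splicing and alternative polyadenylation. Such isoforms can encode different proteins, or the same protein under different control of translation and stability. In Drosophila the Broad gene is a known example of isoforms that take turns during development, since its zinc finger isoforms change in share as the larva turns into a pupa. A Trinity gene is a wider class, because the assembler groups contigs by shared sequence and lists alleles, near-identical copies and fragments of 1 transcript as isoforms too. Which of these a pair of contigs represents was not tested. The species was assembled without a genome, so the genes have no coordinates, and the sources used here pair none of the 40 with a gene name or a protein. They are identified by their Trinity number without the prefix TRINITY, and the tissue makeup was not checked against markers here.

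The isoform share is the percent of the TPM of a Trinity gene that 1 isoform holds in a library, where TPM is the number of transcripts per 1000000 after each count is divided by the effective length of the contig. Of all Trinity genes, 8556 reached 10 CPM in all 6 libraries, and 7527 of these had more than 1 isoform. The stage means of 6699 of them lay within 2-fold. Among these steady genes, 4312 (64.4%) kept 1 leading isoform in all 6 libraries, and in 2284 (34.1%) the leader differed between libraries of the same stage. A complete change of leader between the stages was found in 103 genes, or 1.54%. In 45 of them the leader held at least 40% in each of its 3 libraries. After 1 gene of the study's lists of notable transcripts and 4 genes with a highest CPM at most 1.3 times the lowest were dropped, 40 remained. The other 58 changes of leader had a share below 40% in at least 1 library. With a library left out in turn, so that fewer libraries had to show the same leader, 53 to 78 genes met the rule and 34 to 40 of the 40 were among them. The most, 78, were found without late replicate 2, and there were 64 without early replicate 1, 67 without early replicate 3 and 62 without late replicate 1.

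The limit of 40% is not a majority, and the word dominant holds only in part. With a minimum of 50%, 17 genes met the rule, and with a minimum of 60% only 4 did. The mean share of the early-leading isoform over the early libraries had a median of 55.1% across the 40 genes, with a range of 41.9% to 92.2%. The mean share of the late-leading isoform over the late libraries had a median of 56.8% and ran from 44.5% to 94.3%.

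The swing of a gene is the smaller of the fall of its early-leading isoform and the rise of its late-leading isoform, in percentage points between the stage means. Its median was 21.9 points, with a lowest value of 4.07 and a highest of 86.8. The swing reached 10 points in 36 genes, 20 points in 22, 30 points in 11 and 50 points in 5. In 39 of the 40 it exceeded its own SD, computed from the 3 libraries of each stage for the isoform that changed less. The exception was DN22126_c0_g1, with a swing of 9.53 points and an SD of 10.1 points. For both isoforms of all 40 genes the share in every library of 1 stage lay above the share in every library of the other. Among all 16810 isoforms of steady genes with a mean share of at least 10% in a stage, 9.74% were separated in this way with the higher shares in early instars and 10.1% with the higher shares in late instars. The rule nearly fixes the separation in the members and favours a swing above its SD, so nothing is read from either.

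The 8 genes with the largest swing show the pattern at its clearest, and the first of them also shows how much it depends on contig length. In DN16719_c0_g1, contig i1 of 3424 bases gave way to contig i4 of 269 bases. The share of i1 was 92.8%, 92.5% and 91.1% in early replicates 1, 2 and 3, and 2.22%, 11.7% and 2.33% in late replicates 1, 2 and 3. The share of i4 was 2.59%, 7.06% and 6.77% in the early libraries against 97.7%, 87.6% and 97.5% in the late ones. The stages lay far apart, and late replicate 2 was the least complete. In counts the late gain was as steep, with 4.65, 2.97 and 4.99 counts of i4 early and 2261, 275.2 and 813.1 late. Over the pooled libraries of a stage this was 273.5 times the early CPM. The long contig did not leave, however. It held 5417, 1199 and 1976 counts in the early and 1549, 1190 and 568 counts in the late libraries, so its pooled CPM was 2.52 times as high early as late. By counts i4 held 58.5%, 17.8% and 56.9% of the gene in the late libraries and was behind i1 in late replicate 2.

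In DN21831_c1_g1 the lead passed from i2 of 2981 bases to i7 of 1746 bases. The share of i2 was 76.4%, 94.0% and 64.0% in the early and 3.33%, 13.3% and 4.99% in the late libraries. For i7 the shares were 5.84%, 4.34% and 4.36% early and 91.6%, 84.0% and 93.9% late. Here both contigs were well covered, with 6641, 1782 and 2286 counts of i2 early and 5963, 1928 and 2344 counts of i7 late. The swing was 70.9 points by share of TPM and 69.0 points by share of counts, with an SD of 16.0 points for the first. Late replicate 2 again held the largest remainder of the early form.

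DN20136_c4_g1 had the third largest swing by TPM and the largest by counts. Its i1 of 2388 bases had shares of 70.4%, 72.6% and 72.2% in the early and 0.68%, 0.27% and 2.29% in the late libraries. Its i2 of 3846 bases had shares of 0.14%, 2.35% and 0.69% early and 82.0%, 89.2% and 73.0% late. The counts of i1 were 770.8, 141.2 and 314.1 early and 5.51, 1.72 and 5.61 late, and those of i2 were 2.51, 7.56 and 5.01 early and 1098, 942.9 and 295.4 late. Each contig was thus nearly confined to its stage, with a pooled CPM 92.7 times as high in early instars for i1 and 159.6 times as high in late instars for i2. The swing was 70.6 ± 1.58 points by TPM, the smallest SD of the 40, and 84.4 points by counts. That SD is of i1, which changed less, and the late share of i2 had an SD of 8.13 points. A further contig i3 of 1043 bases held the remainder, 27.2% early and 17.5% late.

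In DN19354_c1_g2 and DN19821_c1_g2 the lead passed between contigs of nearly equal length. In DN19354_c1_g2, i1 of 1081 bases had shares of 88.1%, 83.2% and 63.0% early and 20.9%, 25.02% and 12.9% late. Its i9 of 1095 bases stood at 7.29%, 16.4% and 29.3% early and 67.1%, 70.4% and 85.8% late. In DN19821_c1_g2, i8 of 2970 bases held 56.0%, 47.1% and 46.5% in the early libraries and was listed at 0 in all 3 late ones. It is the only early-leading isoform of the 40 without counts in the other stage. With 932.9, 185.4 and 229.3 early counts and a floor of 3 counts over the 3 late libraries, its CPM was at least 436-fold higher in early instars, a bound for counting error only. Its i6 of 3025 bases held 9.79%, 16.7% and 13.5% early and 68.0%, 71.0% and 93.4% late, while a further contig, i4 of 3069 bases, held 32.1% of the gene in early instars. Both genes had clear gaps between the stages in each contig, and their swings were 56.8 and 49.9 points.

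The remaining 3 of the 8 were less complete or less even. DN18738_c0_g4 has only 2 isoforms. Its i1 of 2431 bases held 86.7%, 100% and 86.5% early and 21.0%, 40.7% and 47.8% late, and its i2 of 1948 bases therefore held 13.4%, 0% and 13.6% early and 79.0%, 59.3% and 52.2% late. Late replicate 3 was close to an even split, and by counts i1 was still ahead there with 53.8%. In DN16320_c0_g1, i3 of 1313 bases held 4.45%, 4.81% and 2.87% early and 66.0%, 95.8% and 41.2% late. The late libraries spread widely, and i3 had 3871 counts in late replicate 2 and 734.8 and 205.3 in late replicates 1 and 3. Its i6 of 1143 bases held 56.0%, 50.8% and 55.6% early and 9.79%, 1.98% and 25.7% late. A contig of 258 bases held 37.1% of the TPM of this gene in early instars, and the swing was 41.7 points by TPM but 70.3 points by counts. DN17997_c1_g4, with 2 isoforms of 1451 and 1450 bases, was the most even of the 3. Its i1 held 62.2%, 57.8% and 72.4% early and 33.0%, 29.4% and 29.4% late, a swing of 33.5 ± 7.76 points.

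**Figure D1:**
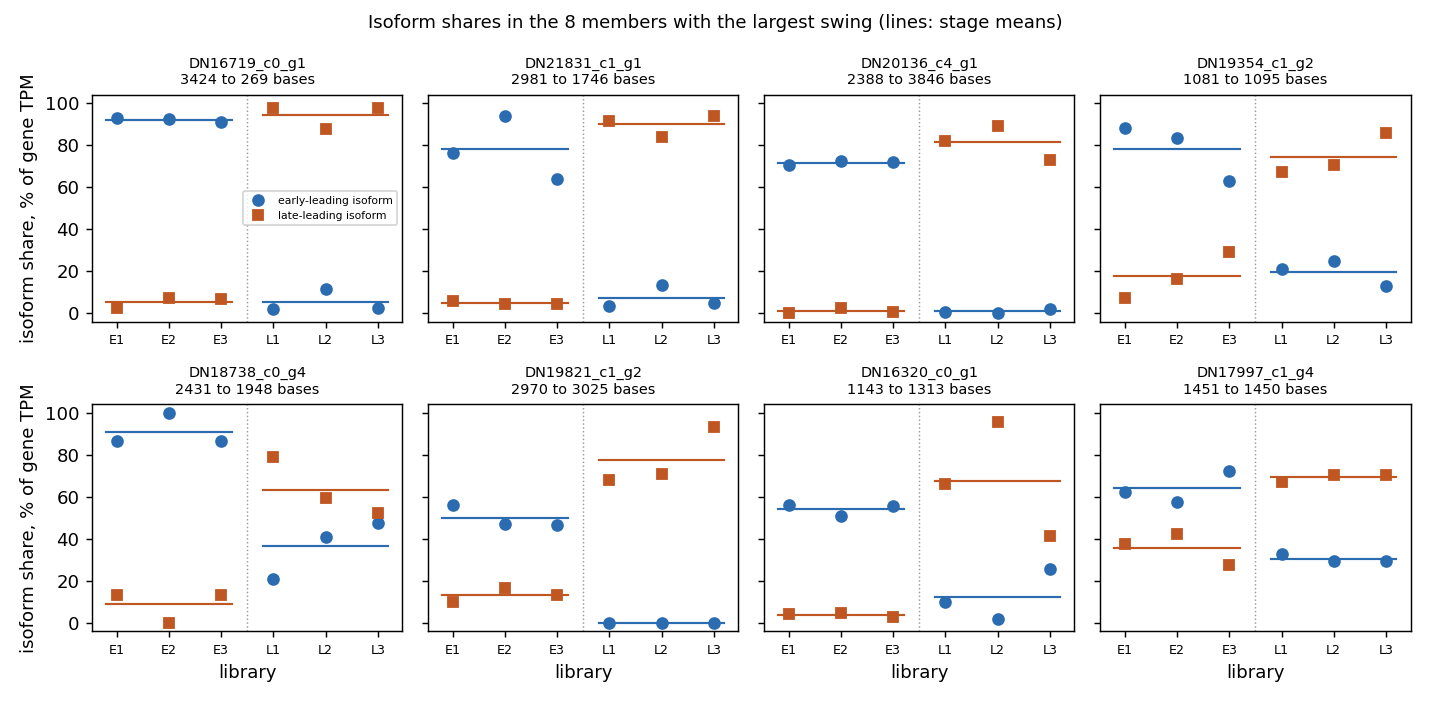
Isoform share (percent of the gene's TPM, y axis) of the early-leading isoform (circles) and the late-leading isoform (squares) in early replicates E1 to E3 and late replicates L1 to L3 (x axis) for the 8 genes with the largest swing, with lines at the stage means. In DN16719_c0_g1, DN21831_c1_g1 and DN20136_c4_g1 the leaders held at least 64.0% in their own stage and at most 13.3% in the other, while DN18738_c0_g4 ended near an even split in L3 with 52.2% against 47.8%.

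In most of the 40 genes the shift was partial. The late-leading isoform's percent of the summed share of the pair gives a common scale. Its median over the 40 genes was 36.1%, 37.0% and 39.97% in early replicates 1, 2 and 3 and 67.9%, 64.5% and 69.8% in late replicates 1, 2 and 3. The highest early value was 49.97% and the lowest late value 50.5%, so that no pair was above 50% early or below it late, as the rule sets. Taken from counts, the medians were 35.0%, 32.5% and 35.1% early and 66.8%, 61.0% and 66.8% late, but there the range of the late libraries reached down to 1.47%.

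**Figure D2:**
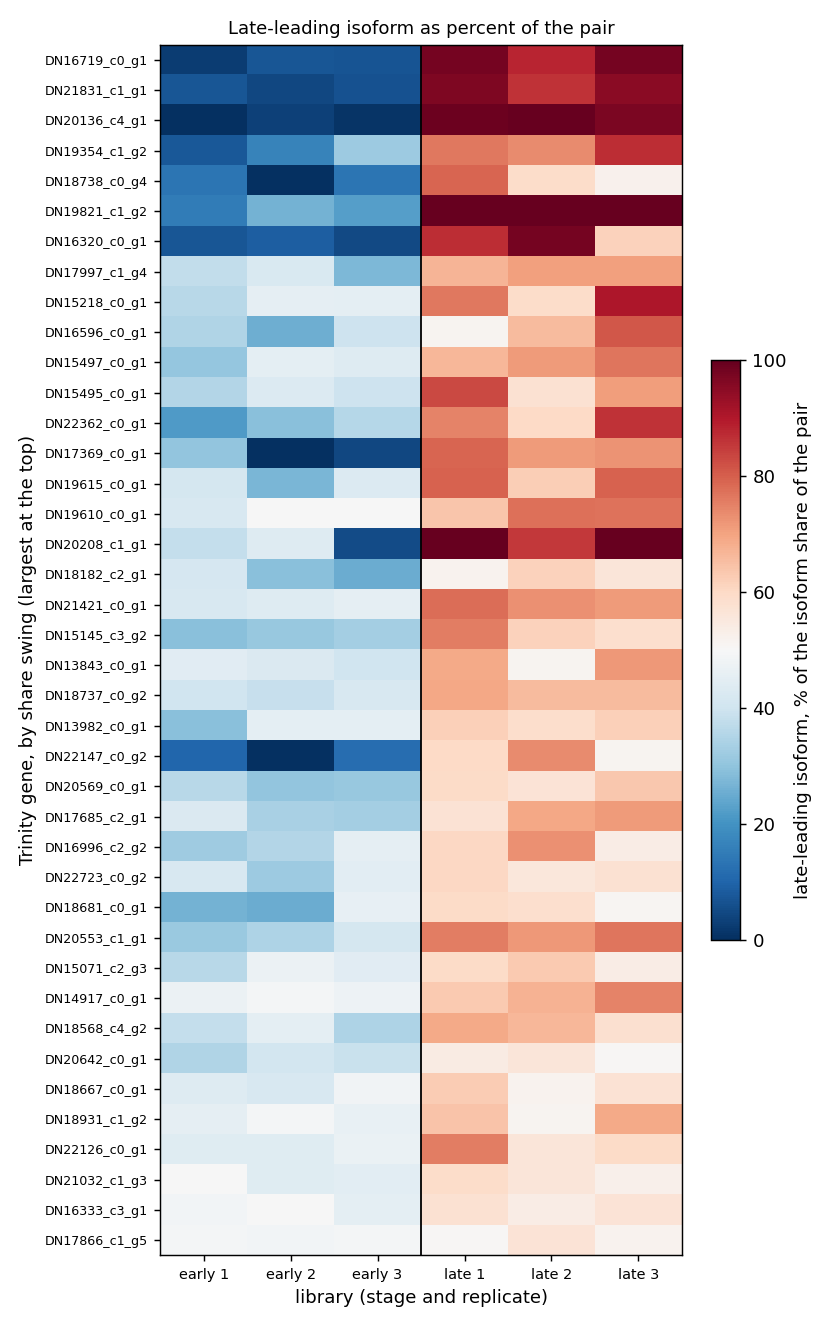
Percent of the pair's summed isoform share held by the late-leading isoform (colour) in each library (x axis) for the 40 genes (y axis, largest swing at the top). The medians lay between 36.1% and 39.97% in the early libraries and between 64.5% and 69.8% in the late ones, and the colours fade from the top to DN17866_c1_g5, whose swing was 4.07 points.

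No late library was the weak one throughout. The lowest late share of the late-leading isoform was that of late replicate 1 in 11 genes, in replicate 2 in 15 and in replicate 3 in 14, and the highest was theirs in 15, 12 and 13 genes. Beside DN16320_c0_g1, the widest spread of late shares was seen in DN15218_c0_g1 and DN16596_c0_g1, both with 2 isoforms. In DN15218_c0_g1, i1 of 3186 bases held 36.0%, 45.6% and 45.2% early and 76.5%, 59.0% and 90.6% late. In DN16596_c0_g1, i2 of 3707 bases held 34.9%, 25.4% and 39.8% early and 51.3%, 65.7% and 81.2% late. The stages did not overlap in either gene, but the late libraries differed from each other by about as much as the stage means did. Early libraries diverged in 2 other genes outside the named set, which were picked after their values were seen. The late-leading i3 of DN17369_c0_g1 held 19.8%, 0% and 2.26% early and 64.2%, 46.5% and 54.2% late. In DN20208_c1_g1 the late-leading i5 held 29.9%, 36.4% and 3.44% early and 49.2%, 53.05% and 44.1% late. Its early-leading i4 spread less, with 48.8%, 47.0% and 63.0% early and 0%, 9.10% and 0% late.

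The smallest swings show where the pattern ends. In DN17866_c1_g5, i3 of 1167 bases held 50.8%, 51.3% and 51.0% early and 49.5%, 43.2% and 48.2% late, against 49.2%, 48.8% and 48.7% early and 50.4%, 56.8% and 51.8% late for i1 of 1179 bases. The order turned, yet in late replicate 1 the contigs were almost even. DN16333_c3_g1 had a swing of 4.43 points, and its shares stood at 43.2%, 41.3% and 46.6% early and 32.6%, 37.7% and 34.5% late for i4, against 41.2%, 40.9% and 38.1% early and 44.3%, 43.6% and 45.6% late for i2. DN21032_c1_g3 had a swing of 9.27 points between i1 of 2311 bases and i2 of 2512 bases. The shares of i1 were 47.70%, 54.5% and 53.9% early and 38.8%, 42.5% and 46.9% late, and in early replicate 1 it was barely ahead of i2, at 47.64%. These 3 genes met the rule on the order of their contigs and not on a large change.

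The most abundant members were 2 genes of short contigs. DN16333_c3_g1, between contigs of 450 and 296 bases, had 915.5, 705.3 and 752.5 CPM early and 663.6, 588.6 and 602.7 CPM late. DN18737_c0_g2, between i6 of 307 bases and i3 of 374 bases, had 390.0, 586.1 and 724.6 CPM early and 412.8, 380.8 and 484.3 CPM late. In the first gene the stages did not overlap, and in the second they did. The share of i6 in DN18737_c0_g2 was 47.4%, 49.7% and 45.7% early and 26.1%, 28.9% and 27.5% late, and that of i3 was 31.5%, 31.2% and 33.1% early and 58.7%, 56.2% and 52.8% late. Libraries of a stage were close together here, with a swing of 20.1 points.

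DN15495_c0_g1, DN15497_c0_g1, DN18182_c2_g1 and DN19615_c0_g1 followed in abundance. DN15495_c0_g1 had 25 isoforms, the most of the 40, yet the other 23 together held 3.12% early and 3.61% late. Its i17 of 2426 bases held 34.3%, 41.8% and 38.4% early and 79.5%, 55.8% and 68.3% late, and its i15 of 2146 bases held 62.7%, 55.5% and 58.0% early and 16.4%, 41.3% and 27.8% late. In DN15497_c0_g1, whose only 2 isoforms have 1539 bases each, i1 held 30.8%, 45.1% and 43.4% early and 66.6%, 71.2% and 76.6% late. In DN18182_c2_g1, with isoforms of 2053 and 2038 bases, the shorter i2 held 41.8%, 29.3% and 25.01% early and 51.6%, 61.4% and 56.2% late. All 3 kept a gap between the stages. DN22362_c0_g1, with 24 isoforms, spread its TPM more widely, and those outside the pair held 31.6% early and 28.6% late. Its i17 of 5971 bases held 12.3%, 21.6% and 26.8% early and 50.7%, 43.3% and 64.0% late.

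The contigs of a pair were often close in length. The rule set no limit on length, but length entered the choice of members through TPM, which divides by the effective length. The late-leading contig was longer in 20 genes, the early-leading one in 18, and both were equally long in 2, DN15497_c0_g1 with 1539 bases and DN22723_c0_g2 with 684 bases. The difference was at most 3 bases in 6 genes, at most 30 in 15 (37.5%), at most 100 in 22 (55.0%) and above 1000 in 6 (15%), with a median of 64 bases. In the 4312 steady genes with 1 leader throughout, the first and second isoform differed by a median of 412.5 bases, by at most 30 in 12.1% and by more than 1000 in 29.1%. Among the 1327 of those whose second isoform held at least 20%, the median was 356 bases, and 18.2% differed by at most 30. These shares are set side by side without a test, since the members are few and were selected. Of the 13 pairs that differed by 1 to 30 bases, 4 differed by a multiple of 3, the length of a codon, beside 38.1% (194 of 509) in the genes with 1 leader. The median number of isoforms was 7 in the members and 6 in the genes with 1 leader.

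The other pairs within 30 bases, given to complete the account, were mostly partial shifts. DN19610_c0_g1 and DN13843_c0_g1 have 2 isoforms each. The late-leading contig of DN19610_c0_g1, 2224 bases against 2223, held 41.9%, 49.8% and 49.9% early and 63.9%, 77.5% and 77.3% late. That of DN13843_c0_g1, 2623 bases against 2636, held 44.2%, 42.9% and 40.1% early and 68.8%, 51.2% and 71.8% late. Late replicate 2 was thus the lowest of its stage in the second gene and the highest in the first. The late-leading contig of DN15145_c3_g2, 1917 bases against 1908, was clearly apart, with 25.2%, 22.3% and 27.2% early and 68.8%, 58.0% and 55.9% late. In DN18568_c4_g2, with contigs of 2159 and 2161 bases, the late leader held 25.3%, 35.1% and 22.0% early and 53.8%, 55.6% and 44.3% late. In DN18681_c0_g1, with contigs of 3298 and 3310 bases, it held 22.7%, 20.3% and 38.8% early and 47.3%, 44.4% and 42.8% late. The gap was narrow in the latter gene, where early replicate 3 stood only a little below the late libraries. DN20642_c0_g1, with contigs of 1602 and 1600 bases, had a swing of 12.3 points. DN17685_c2_g1 had contigs of 2825 and 2850 bases, and the late leader held 34.8%, 27.8% and 28.2% early and 40.2%, 50.6% and 56.4% late. The equal contigs of DN22723_c0_g2 were less even in level than in share. Its late leader held 41.9%, 31.9% and 44.6% early and 59.4%, 55.5% and 56.2% late, and the gene had 15.5, 17.6 and 11.3 CPM early and 31.7, 18.2 and 26.2 CPM late.

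Pairs that differed by 31 to 100 bases included a gene whose level was almost the same in both stages. DN21421_c0_g1 had a mean of 157.1 CPM early and 156.7 CPM late. Its contig of 1566 bases held 50.2%, 48.8% and 47.9% early and 21.3%, 25.7% and 27.1% late, and its contig of 1646 bases held 36.3%, 37.4% and 40.3% early and 75.2%, 68.8% and 67.5% late. Libraries of a stage were close together for both contigs, and the swing of 24.3 points had an SD of 3.24 points. DN22126_c0_g1 had the longest contigs of the 40, with 8195 and 8144 bases. Its early leader held 40.7%, 41.2% and 44.1% early and 21.3%, 40.1% and 36.0% late, so late replicates 2 and 3 were near the early values. In DN18931_c1_g2, with contigs of 1623 and 1576 bases, the late leader held 35.9%, 42.3% and 41.5% early and 59.2%, 43.4% and 63.7% late. In DN14917_c0_g1, with contigs of 1050 and 1111 bases, it held 42.6%, 45.4% and 46.6% early and 52.4%, 56.0% and 72.6% late. A single late library was thus close to the early ones in the first of these, and a single late library was well above the others in the second.

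At the other end stood the pairs with the largest differences of length in each direction. DN20136_c4_g1, DN15071_c2_g3 and DN18667_c0_g1 had the largest gain of length from the early to the late leader. In DN15071_c2_g3, i2 of 1574 bases held 35.6%, 46.2% and 43.5% early and 59.2%, 62.8% and 53.2% late and i8 of 1122 bases held 62.9%, 51.9% and 54.8% early and 39.9%, 36.6% and 46.2% late. In DN18667_c0_g1, i1 of 3034 bases held 43.7%, 42.1% and 48.3% early and 59.3%, 51.6% and 57.1% late. The losses of length were greater, and DN22147_c0_g2, DN19615_c0_g1 and DN16719_c0_g1 led them. In DN19615_c0_g1, i3 of 904 bases held 35.6%, 24.7% and 37.7% early and 67.2%, 46.0% and 66.4% late, and i1 of 5964 bases held 50.8%, 66.4% and 49.5% early and 17.5%, 27.7% and 17.3% late. By counts i1 stayed ahead in late instars, with 45.0% on average against 17.5% for i3.

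Another 3 unequal pairs were alike in that the longer contig stayed ahead by counts in late instars on average. DN20569_c0_g1 had contigs of 6309 and 3801 bases, and the shorter, late leader held 30.9%, 22.96% and 23.0% early and 50.6%, 49.0% and 51.3% late. By counts the longer contig kept 46.5% on average in late instars against 41.3%. DN13982_c0_g1 had contigs of 781 and 385 bases, and the shorter one held 26.5%, 43.1% and 40.6% early and 58.5%, 52.8% and 57.8% late, but only 33.1% of the late counts on average. In DN16996_c2_g2, with contigs of 1352 and 662 bases, the shorter one held 23.7%, 28.0% and 35.3% early and 47.7%, 51.5% and 43.0% late, and 30.3% of the late counts. The late leader was thus the shorter contig in these 3 genes, and by counts it was behind on average in late instars. DN20553_c1_g1 was different. Its contigs had 4425 and 4179 bases, the early leader held 59.3%, 60.4% and 57.4% early and 14.6%, 20.9% and 15.6% late, and the swing was 16.5 points by TPM and 27.1 points by counts. Isoforms outside the pair held 33.4% of it in late instars.

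A share of counts favours long contigs, which give more fragments per transcript, and TPM divides by the effective length to correct for this. The effective length of a very short contig is small, so that few counts can make a large share of TPM. Which of the 2 scales is nearer to the true share of such a contig was not tested. Over long contigs the effective length was a median of 159.1 to 174.5 bases below the full length, depending on the library. The 249-base contig i8 of DN22147_c0_g2 had a mean effective length of 87.5 bases. That contig held 0.00% to 6.56% of the TPM in early and 43.9%, 64.0% and 40.2% in late instars, while by counts its late shares were 1.61%, 2.96% and 1.21%. The long i13 of 6725 bases held 77.9% of the counts early and 81.6% late, so that by counts it led in all 6 libraries and the swing was -3.65 points.

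With shares of counts in place of shares of TPM, 27 of the 40 genes showed the same change of leader and 13 did not. All 15 pairs within 30 bases were among the 27, and so were 10 of the 19 pairs that differed by 31 to 1000 bases and 2 of the 6 beyond 1000. None of the 5 genes in which a contig of the pair was under 400 bases was. The median swing was 22.3 points in the pairs within 30 bases and 48.9 points in those beyond 1000 by TPM, and 24.4 and 30.1 points by counts. In 5 of the 13, DN14917_c0_g1, DN18667_c0_g1, DN18737_c0_g2, DN18738_c0_g4 and DN21032_c1_g3, the stage means by counts still changed order, and the order within the pair was that by TPM in 5 of the 6 libraries. In the other 8 the stage means did not change order. Genes in which a contig of the pair was under 400 bases made up 12.5% of the members, and 21.0% of the steady genes with 1 leader had such a contig among their first and second isoform.

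**Figure D3:**
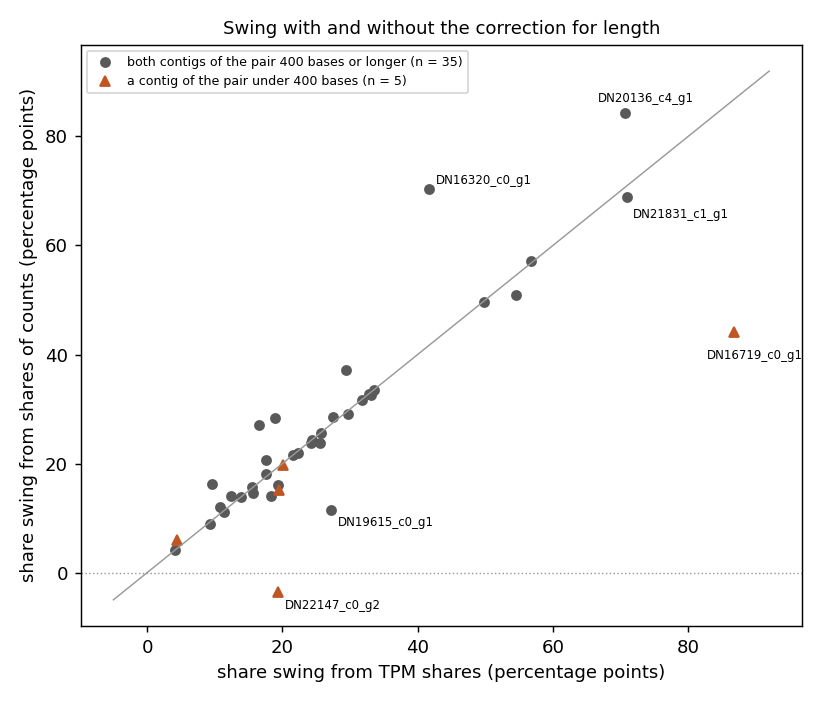
Swing of each of the 40 genes from shares of TPM (x axis, percentage points) and from shares of expected counts (y axis, percentage points), with the line of equal values, and triangles for the 5 genes in which a contig of the pair was under 400 bases. Most genes lie near the line, DN16719_c0_g1 drops from 86.8 to 44.2 points and DN22147_c0_g2 to -3.65, and DN16320_c0_g1 rises from 41.7 to 70.3.

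The pair held most of its gene as a rule. In 24 of the 40 genes the pair took at least 80% of the TPM in both stages, and 8 genes had no further isoform. The share of the pair had a median of 88.6% early and 92.2% late, with lows of 53.4% and 51.8%. In DN22147_c0_g2 a contig of 290 bases took 23.6% early and 11.2% late.

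The gene level was limited to 2-fold by the rule. Mean CPM was higher in early instars in 21 genes and in late instars in 19, and the higher stage was a median of 1.28 times the lower. The ranges of the stages overlapped in 25 genes and were apart in 15 (37.5%), beside 33.5% of the 6699 steady genes. DN17866_c1_g5 lay nearest to the limit, with 94.7, 87.3 and 94.4 CPM early and 177.1, 165.8 and 192.4 CPM late, a ratio of 1.94. The highest CPM was a median of 1.82 times the lowest in the members and 1.65 times in the steady genes. DN16320_c0_g1 was far beyond both at 6.33 times, with 35.8, 28.9 and 37.1 CPM early and 25.5, 140.3 and 22.2 CPM late. Its higher late mean came from late replicate 2 alone, and without that library the log2 ratio of early to late went from -0.89 to 0.51.

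**Figure D4:**
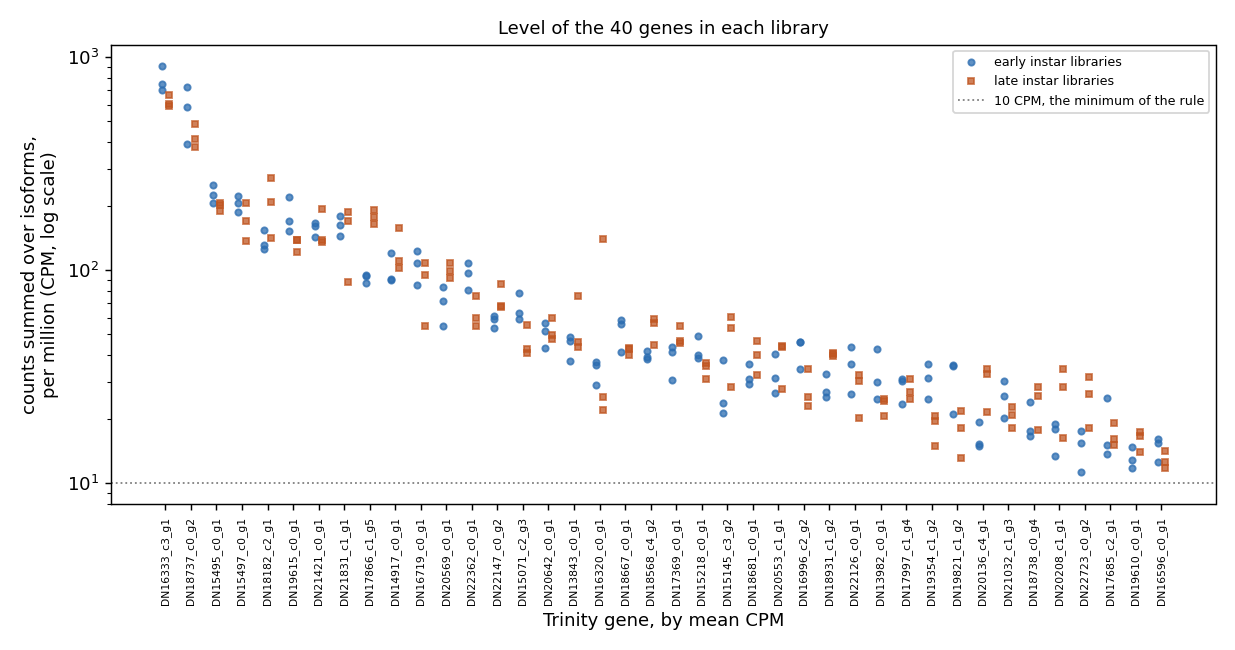
Expected counts summed over the isoforms of each gene (CPM, log scale, y axis) in the 3 early (circles) and 3 late (squares) libraries for the 40 genes ordered by mean CPM (x axis), with a line at the minimum of 10 CPM. The stages overlap in 25 genes, and the point that stands out is DN16320_c0_g1 in late replicate 2 at 140.3 CPM.

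In TPM the genes were less steady. On this scale the median log2 ratio of early to late was -0.28 in the members and -0.26 in all steady genes, against 0.02 and -0.08 in CPM, so the step from CPM to TPM moved the median of both sets toward late instars. Mean TPM was higher in late instars in 26 members (65.0%) and in 72.7% of the steady genes. It differed more than 2-fold in 3 members (7.5%) and in 3.24% of the steady genes. These were DN16719_c0_g1, DN22147_c0_g2 and DN17866_c1_g5. In DN16719_c0_g1 the TPM was 9.38 ± 1.64 early and 127.9 ± 84.3 late (SD, n = 3) while the CPM was 105.4 ± 19.1 early and 86.0 ± 28.0 late, and in 7 members (17.5%) the scales gave opposite directions, beside 15.5% of the steady genes. DN22147_c0_g2 had 3.83 ± 0.30 TPM early and 9.98 ± 2.69 late.

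The fit across all features gives the background to these values. Of 52912 transcripts tested with edgeR's quasi-likelihood test, 3.02% were called for early instars and 4.2% for late instars, with a limit of 0.05 on the Benjamini-Hochberg adjusted p and a log2 difference of 2 or more either way. Of the 40 early-leading isoforms 5 were called for early instars, and of the 40 late-leading isoforms 5 for late instars, or 3 without early replicate 1, early replicate 3 or late replicate 1. The rule used this contrast, so nothing is read from these counts. The called pairs were those of DN16320_c0_g1, DN20136_c4_g1 and DN21831_c1_g1, to which the early-leading isoforms of DN19354_c1_g2 and DN19821_c1_g2 and the late-leading ones of DN15145_c3_g2 and DN16719_c0_g1 are added. At the limits of the study, an adjusted p of 0.001 with the same fold, the quasi-likelihood test called 0 of the 52912 transcripts, although 12871 had an unadjusted p under 0.05. The smallest adjusted p was 0.002474 in this test and 4.942e-59 in edgeR's exact test. The study itself called transcripts at these limits, with edgeR run within Trinity. At the wider limits the quasi-likelihood test called 3818, edgeR's exact test 6048 and DESeq2 6350.

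At the gene level no limit was set on the fold. At an adjusted p of at most 0.05 in the same test, 29.7% of 22132 genes were called, and 5 of the 40 members were. The rule limited these same gene levels, so nothing is read from the calls either. They fell on DN17866_c1_g5 and DN20136_c4_g1 for late instars and on DN19354_c1_g2, DN19821_c1_g2 and DN22362_c0_g1 for early instars. Both counts depended on single libraries and settings. The number called for early instars was 0 without early replicate 2 or late replicate 3, 1 without early replicate 1, early replicate 3 or late replicate 1, 5 without late replicate 2, and 0 with RLE factors. The number called for late instars was 1 without early replicate 2 or late replicate 1, 6 without late replicate 2, and 6 with DESeq2.

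The members just inside each limit of the rule had near neighbours outside it. DN22723_c0_g2 passed with a lowest value of 11.3 CPM, and DN22467_c1_g1 missed the minimum with 9.94 CPM. The ratio of stage means was 1.94 in DN17866_c1_g5 and 2.29 in DN21047_c5_g1, the nearest gene beyond 2-fold. The smallest leading share was 40.2% in DN17685_c2_g1, in late replicate 1 of its i4, and 39.9% in DN15051_c3_g1, which was left out. The highest CPM was 1.31 times the lowest in DN17997_c1_g4 and 1.24 times in DN22738_c2_g1, which was dropped as flat. Of the genes that met every other part of the rule, 84 lay below 10 CPM, 53 below the share limit, 10 beyond 2-fold and 4 within 1.3 times.

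All 40 genes came from different read clusters of the assembly. A Trinity number names such a cluster and a component within it, and a component can hold further genes that share sequence. In 31 members (77.5%) the component held at least 1 further gene, beside 81.6% of the steady genes, and in 8 (20.0%) it held a further gene of at least 10 CPM, beside 31.8%. Counts of those members could have been divided with the other gene, and this was not tested.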

How the data were processed

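Paired-end reads of 150 bp from 6 libraries were trimmed by the authors with Trimmomatic 0.36 (reads under 50 bp removed), assembled together with Trinity, and assigned with RSEM (version and aligner not given in the sources used here). Raw expected counts of each transcript were deposited, in which RSEM divides a fragment among the contigs it maps to. The authors also deposited TPM and FPKM, scaled within a library by effective length, and the percent of the gene's TPM held by each isoform. FPKM entered no result. The authors' own fold changes and p-values were not used.

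Expected counts were summed over the isoforms of a gene and divided by the library total to give CPM. The rule needed at least 10 CPM in all 6 libraries, stage means within 2-fold, 1 leader in all 3 early libraries and another in all 3 late ones, and a share of at least 40% for each. The members and the lists were chosen with earlier results of these data known. Named genes were those with the 8 largest swings, the 6 highest levels, the 3 largest length differences in each direction, the 3 smallest, the 3 smallest swings, the 3 largest TPM ratios, the 2 highest isoform numbers, the 3 widest late spreads and the genes nearest each limit.

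For the background, counts rounded to whole numbers and above 1 CPM in at least 2 libraries were tested over all transcripts or genes with edgeR 4.0.16 (glmQLFit and glmQLFTest, TMM) in R 4.3.3, with Benjamini-Hochberg adjustment. The steps were tested on simulated data. Alternatives were DESeq2 1.42.0, edgeR's exact test, RLE factors, no filter, the limits of the study, a replicate block, other limits of the rule, shares of counts, TPM, and each library left out in turn. Tables were made with Python 3.11.15 and pandas 2.3.3. Intervals between libraries rest on 3 pools per stage, and floors of 3 counts cover counting error only. Base sequences of the contigs were not analysed here.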

Additional observations from a re-analysis of the deposited data

How the results depend on the processing

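The number of genes that met the rule depended on the share limit. It was 70 at a minimum of 30%, 17 at 50% and 4 at 60%, against 40 at 40%. With each library left out in turn, 53 to 78 genes met it, since fewer libraries had to show the same leader, with 64 without early replicate 1, 67 without early replicate 3, 62 without late replicate 1 and 78 without late replicate 2, and 34 to 40 of the 40 were among them. It was 46 with shares of counts (27 of the 40 among them), 37 with stage means in TPM, 51 at 5 CPM, 30 at 20 CPM, 29 within 1.5-fold, 44 with flat genes kept, and 35 with both contigs at least 500 bases long, an alternative chosen after seeing the data. The median swing ran from 21.0 to 23.4 points over the left-out libraries and was 22.9 points with shares of counts. The median log2 ratio of early to late CPM ran from -0.08 to 0.09 over the left-out libraries, and was 0.06 with TMM factors and -0.28 in TPM. Of the 24 named genes, 18 had a swing by counts within 1 SD of that by TPM.

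The background counts moved with the test. The 3818 transcript calls became 0 at the limits of the study, 6048 with edgeR's exact test, 6350 with DESeq2 (552 transcripts without an adjusted p) and 2243 to 4407 over the left-out libraries, with 2243 without early replicate 1, 2397 without early replicate 2 and 2336 without late replicate 1. The 6569 gene calls became 1953 at the limits of the study and ran from 4685 to 7582 over the left-out libraries. Of the early-leading isoforms 5 were called, 0 at the limits of the study and 4 to 7 over the left-out libraries. Of the late-leading isoforms 5 were called, 0 at the limits of the study, 8 with the exact test and 3 to 5 over the left-out libraries, with 3 without early replicate 1, early replicate 3 or late replicate 1. Genes called for early instars numbered 3 of the 40, 0 at the limits of the study, 0 with RLE factors, 1 without the filter and 0 to 5 over the left-out libraries. Genes called for late instars numbered 2, 0 at the limits of the study, 6 with DESeq2 and 1 to 6 over the left-out libraries, with 1 without early replicate 2 or late replicate 1 and 6 without late replicate 2. Apart from the gene calls of members at the limits of the study, the cause was not tested.

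The sources used here describe no pairing of early and late replicates by number. With each stage centred on its own mean, same-numbered libraries correlated by 0.15, 0.04 and 0.22 over genes and by 0.06, -0.003 and 0.05 over transcripts. Over genes each library correlated best with its own number, a hint from the data and not the design. Centring within so few libraries ties these values to each other, so they cannot decide whether the samples are paired. With the replicate block 347 transcripts were called, 0 of the early-leading and 1 of the late-leading isoforms. At the gene level 6400 genes were called with the block and 6569 without it. With the block 3 members were called for early and 3 for late instars. Depth limits the shares most in early replicate 2, where 10 CPM stood for 111.8 counts.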
